A study of Mus musculus with 8 samples.

Results

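The 4 basal-like libraries were set against the 4 luminal libraries, WT and Lats1-CKO together, with genotype as a covariate. All 8 libraries of the series entered, and 9031 of the 10924 genes in the table had a normalized read count of at least 10 in at least 2 libraries and were tested. The genes described in most depth are those whose values did not overlap, with every basal-like library on 1 side of every luminal library. There were 257 such genes, of which 167 were lower and 90 higher in basal-like cells.

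The cells came from cultured lines of mammary tumors of FBV/N mice in which the MMTV promoter drives the polyoma middle T oncogene (PyMT), and every group carried this oncogene. Lines were either WT or Lats1-CKO, with a conditional deletion of the Hippo pathway kinase gene Lats1. Flow cytometry took EpCAM-high, CD49f-high cells as luminal and EpCAM-low, CD49f-high cells as basal-like, and each population was grown for a short, unstated time before bulk RNA was taken for MARS-seq, which reads the 3' ends of transcripts. There were 2 libraries for each population and genotype. The sources used here do not say whether such a pair came from separate cultures or lines, so p-values reflect no more than the spread between the libraries, which may be technical. In bulk RNA, fewer cells of a type and less RNA per cell cannot be told apart.

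In the mammary gland, luminal cells line the duct and are held together by tight junctions, adherens junctions and desmosomes, which also keep the apical surface apart from the lateral one. Basal cells rest on the basement membrane and share keratins and contractile proteins with smooth muscle and skin. Carcinoma cells can lose junctions and polarity and gain vimentin and matrix proteins, a change called epithelial-mesenchymal transition (EMT), and repressors of the ZEB and SNAIL families that act in it bind an E-box in the promoters of epithelial genes.

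Library totals ran from 1070358 to 2334446 reads, and 1 read was worth a normalized count of 0.638 to 1.35. The libraries did not group by population. Pearson's r, taken across the tested genes on log2(value + 1), was 0.783 to 0.886 between basal-like libraries, 0.856 to 0.899 between luminal libraries and 0.721 to 0.942 between the populations, and each of the 8 libraries had its highest r with a library of the other population. Genes are not independent replicates, and these values carry no test. The highest r was that of WT basal-like replicate 1 with WT luminal replicate 2, against 0.886 with the other WT basal-like library. Epcam, which chose the cells at the sort, was at 562 in that library, inside the luminal range of 511 to 708, while the other basal-like libraries had 255, 10.7 and 33.7, and DESeq2 called Epcam. Itga6, which encodes CD49f and was high in both gates, ranged from 48.2 to 195 in basal-like and from 81.6 to 338 in luminal libraries. Counts of separating genes that change without WT basal-like replicate 1 are therefore given with and without it for each gene list described. That library was singled out on these same values, Epcam among them. A higher count of an epithelial list without it was thus partly built in and carries no test, also beside the share of all genes. The lists were chosen with earlier results of these data known, so a direction shared by their members carries no test. Lats1 had a count of 30.3 to 62.5 in the WT libraries and 8.04 to 13.4 in the Lats1-CKO libraries, but the deleted exons are not given, so that 3' reads do not measure the deletion.

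The keratins that serve as luminal and basal markers overlapped between the sorted populations. Krt8, a keratin of luminal cells, had 1991, 2694, 1801 and 792 in the luminal libraries and 1811, 529, 20.1 and 36.2 in the basal-like libraries, each in the order WT replicate 1, WT replicate 2, Lats1-CKO replicate 1 and Lats1-CKO replicate 2, an order kept below. WT basal-like replicate 1 lay among the luminal libraries, and without it Krt8 did not overlap. Krt8 was called by the averaged fit (limma adjusted p = 0.0406) and by DESeq2 (adjusted p = 0.0111). Krt18, its partner, had 3387, 3746, 1477 and 652 in luminal and 2450, 1386, 54.9 and 103 in basal-like libraries, which overlapped with any 1 library left out, and DESeq2 called it. The basal keratins did not follow the label basal-like. Krt5 was at 4881 in Lats1-CKO luminal replicate 2 and between 18.3 and 31.9 in the other 7 libraries, and Krt14 was at 1971 to 14722 in luminal and 125 to 2098 in basal-like libraries. Without WT basal-like replicate 1, or without WT luminal replicate 2, Krt14 was lower in every basal-like library. Of the 8 tested basal and myoepithelial markers 5 had a negative and 3 a positive fold change, and among the 10 measured the summed level was 551 to 3654 in basal-like and 3558 to 25166 in luminal libraries. The basal-like libraries were therefore not marked by basal keratins, and basal-like is used here for the sorted gate.

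No gene was called in the test of the population effect across both genotypes (limma, Benjamini-Hochberg adjusted p under 0.05 over 9031 genes, 0% called, lowest adjusted p = 0.151). An unadjusted p under 0.05 was found for 366 genes lower in basal-like cells (4.05%) and 245 genes higher (2.71%). These shares are the background for the counts of unadjusted p in gene lists below. Without WT basal-like replicate 1 limma again called 0 genes, with 880 at an unadjusted p under 0.05 against 611 with all libraries. edgeR called 0 genes, with 613 at an unadjusted p under 0.05. When each genotype had its own population effect and both were averaged, limma called 30 genes lower (0.332%) and 4 higher (0.0443%) in basal-like cells. DESeq2 on the recovered reads called 49 lower (0.601% of 8155 genes with an adjusted p) and 28 higher (0.343%), and 28 genes were called by both the averaged fit and DESeq2. Calls of the averaged fit and of DESeq2 are given by name.

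The 257 genes with no overlap made up 2.85% of the genes tested, with 1.85% lower and 0.997% higher in basal-like cells. An exact two-sided permutation test of a single such gene over the 70 splits of 8 libraries gives p = 0.0286, the lowest it can reach, and p = 0.0556 over the 36 arrangements within genotype, so the separation is a description of ranks and not a call. The share of genes that separated, 2.85%, is as large as that first p, so the number of separating genes does not by itself show a population effect. Many gaps were narrow. The gap, taken between the nearest libraries of either population on the value + 1, was under 1.1-fold for 74 of the 167 lower and 65 of the 90 higher genes. Just inside the limit, Dusp8 had 91.7 in its highest basal-like and 91.9 in its lowest luminal library. Just outside it, Mcat had 48.5 in its highest basal-like and 48.4 in its lowest luminal library, and both were picked after their values were seen. A gap of at least 1.5-fold left 14 genes lower (0.155%) and 1 gene higher (0.0111%) in basal-like cells.

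**Figure D1:**
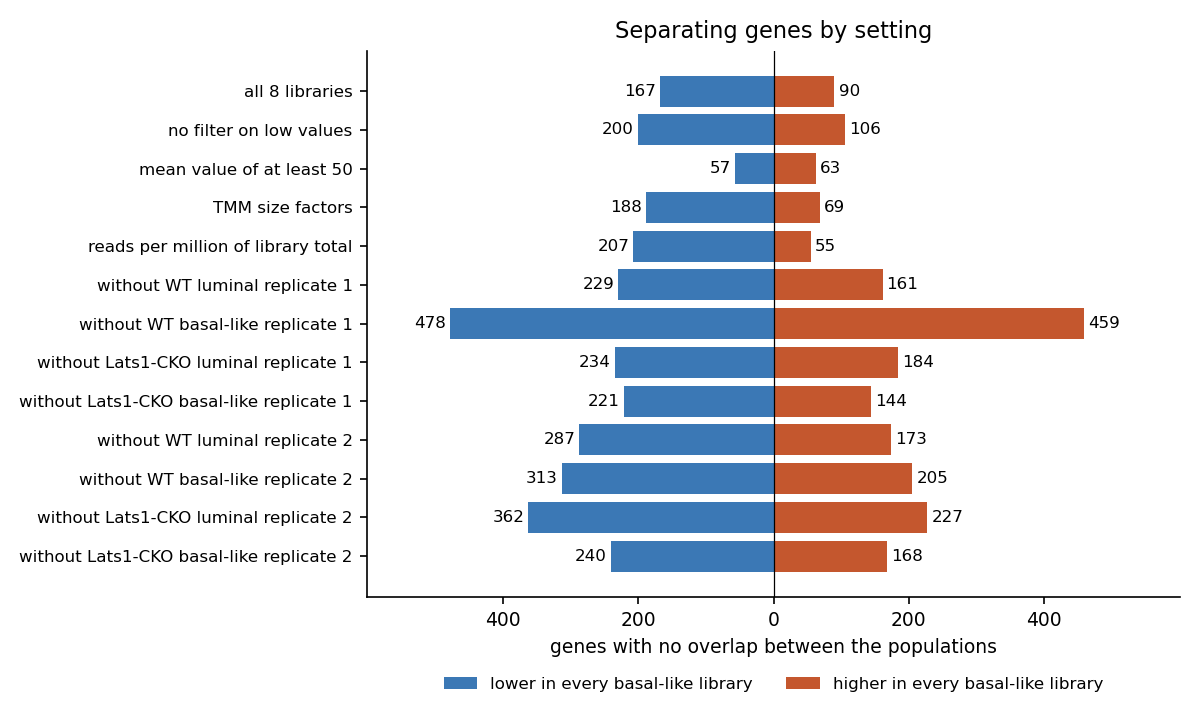
The number of genes with no overlap between basal-like and luminal libraries (x axis, genes, lower in basal-like to the left and higher to the right) under each scaling, filter and library left out (y axis). All 8 libraries gave 167 lower and 90 higher genes, and leaving out WT basal-like replicate 1 gave 478 and 459. Leaving out a library cannot lower a count.

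WT basal-like replicate 1 limited the separation more than any other library. Without it 478 genes were lower (5.29%) and 459 higher (5.08%) in all remaining basal-like libraries, a total of 937 against 365 to 589 when any of the other 7 libraries was left out. Leaving out any library can only keep or raise this count, and with fewer libraries more genes separate without any population effect. WT basal-like replicate 1 was the basal-like library nearest to the luminal range for 77 of the 167 lower and 34 of the 90 higher genes. The scaling moved the balance of directions. With TMM size factors 188 genes were lower and 69 higher (73.2% lower), and with reads scaled to the library total 207 and 55 (79.0% lower), against 65.0% lower with the size factors of the table. Of the 167 lower genes all 167 also separated with TMM size factors and 166 with the library total, and of the 90 higher genes 69 and 54 did. Among genes with a mean count of at least 50 the balance was 57 lower and 63 higher (47.5% lower).

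The genes lower in every basal-like library differed more than those that were higher. Their median log2 fold change was -1.17, or 2.25-fold lower, beside a median of 0.02 over all genes tested, and 93 of the 167 (55.7%) differed by over 2-fold against 8.50% of all genes. These sizes follow from how the genes were chosen and carry no test. The genes higher in every basal-like library differed less, with a median log2 fold change of 0.51 and 11 of 90 over 2-fold. They were also more abundant, with a median mean count of 124 against 32.9 for the lower genes and 53.9 for all.

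**Figure D2:**
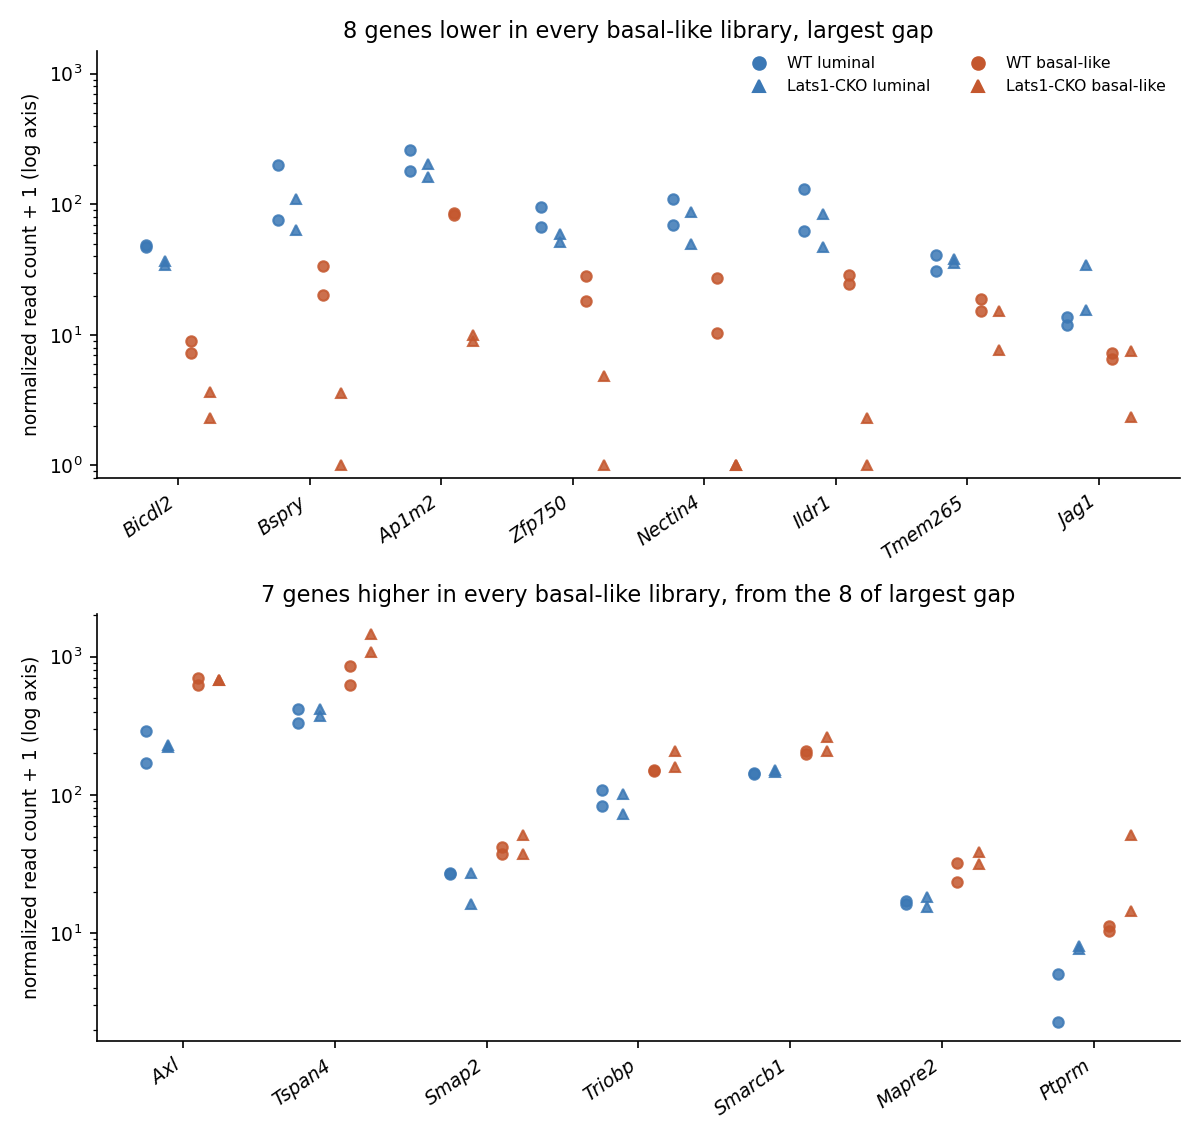
Normalized read count + 1 (y axis, log scale) of 8 lower and 7 higher genes, taken from the 8 of each direction with the largest gap, 1 point per library, with color for the population and shape for the genotype. In Bicdl2 the luminal libraries sit at 33.3 to 47.8 and the basal-like libraries at 1.29 to 7.96, and in Axl the basal-like libraries sit at 619 to 695 and the luminal libraries at 169 to 288.

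Bicdl2 (chromosome 17, 23660506 to 23668621, plus strand, GRCm38), an adaptor that links Rab GTPase vesicles to microtubule motors, had the widest gap of all tested genes. Its count was 45.9, 47.8, 35.5 and 33.3 in the luminal libraries and 6.22, 7.96, 2.68 and 1.29 in the basal-like libraries. The lowest luminal library lay 3.83-fold above the highest basal-like library, and both Lats1-CKO basal-like libraries lay below both WT basal-like libraries. The log2 fold change was -3.09 ± 0.36 (SE), with -2.57 in WT and -3.61 in Lats1-CKO (limma adjusted p = 0.151). Bicdl2 was called by the averaged fit (limma adjusted p = 0.0193) and by DESeq2 (adjusted p = 1.58e-06). Its basal-like counts rest on 21 reads in all.

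Vesicle traffic to the apical and basolateral membranes was a shared role of several lower genes. Ap1m2 (chromosome 9, 21294275 to 21312337, minus strand) encodes the epithelium-specific medium chain of the AP-1 clathrin adaptor, which sorts cargo to the basolateral membrane. It had 180, 258, 202 and 159 in luminal and 85.5, 81.9, 8.04 and 9.06 in basal-like libraries, so that the WT basal-like libraries lay between the luminal ones and those of Lats1-CKO. Its log2 fold change was -2.80 ± 0.54 (SE) at a limma adjusted p of 0.391, and both the averaged fit (limma adjusted p = 0.00763) and DESeq2 (adjusted p = 0.000666) called it. Rab25 (chromosome 3, 88542029 to 88548300, minus strand), a small GTPase of apical recycling, followed the same order, with 342, 434, 317 and 273 in luminal and 182, 96.3, 8.04 and 7.77 in basal-like libraries. Its log2 fold change was -3.29 ± 0.65 (SE) at a limma adjusted p of 0.393, and it too was called by the averaged fit and by DESeq2. Myo5b, the motor that carries Rab25 and Rab11 vesicles, had 37.8, 31.9, 28.8 and 27.3 in luminal and 17.1, 11.9, 1.34 and 2.59 in basal-like libraries, a log2 fold change of -2.27 ± 0.48 (SE) at a limma adjusted p of 0.428, and DESeq2 called it (adjusted p = 0.0350) while the averaged fit did not. Of the 10 tested apical traffic genes all 10 had a negative fold change, with a median of -1.29, 4 had an unadjusted p under 0.05, and Rab25, Myo5b, Ap1m2 and Cblc, an epithelial ubiquitin ligase, did not overlap between the populations, a count that was also 4 without WT basal-like replicate 1. Cblc was called by the averaged fit and by DESeq2. Over all tested genes 1.85% separated as lower with all libraries and 5.29% without WT basal-like replicate 1.

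The promoters of Ap1m2 and Rab25 are shown because both hold several copies of the E-box CAGGTG, which reads CACCTG on the other strand and is bound by ZEB and SNAIL proteins, and that of Axl, the gene with the widest gap in the other direction, is shown beside them. Each is the 250 bases before the transcription start in RefSeq on GRCm38.p6 (Ap1m2 at chr9:21312334-21312583, minus strand, Rab25 at chr3:88548280-88548529, minus strand, Axl at chr7:25788734-25788983, minus strand), 5' to 3' on the strand of the gene, with E-boxes in capitals.
Ap1m2: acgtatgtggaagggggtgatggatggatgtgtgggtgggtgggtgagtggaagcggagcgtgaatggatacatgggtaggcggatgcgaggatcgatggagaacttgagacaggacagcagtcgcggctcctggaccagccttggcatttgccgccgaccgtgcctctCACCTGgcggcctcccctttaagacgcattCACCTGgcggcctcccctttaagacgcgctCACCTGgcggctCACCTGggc
Rab25: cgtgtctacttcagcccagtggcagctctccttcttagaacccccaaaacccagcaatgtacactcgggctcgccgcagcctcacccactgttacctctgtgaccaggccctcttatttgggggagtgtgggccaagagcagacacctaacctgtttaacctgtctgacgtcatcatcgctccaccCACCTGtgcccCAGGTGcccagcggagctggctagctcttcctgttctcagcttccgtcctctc
Axl: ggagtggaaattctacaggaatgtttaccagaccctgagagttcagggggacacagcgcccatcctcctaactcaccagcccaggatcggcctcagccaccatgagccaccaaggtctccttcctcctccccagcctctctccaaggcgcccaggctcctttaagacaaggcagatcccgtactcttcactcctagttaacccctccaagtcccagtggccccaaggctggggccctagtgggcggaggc
The 4 E-boxes of Ap1m2 begin 81, 51, 21 and 9 bases before the start, those of Rab25 begin 64 and 53 bases before it, and the Axl stretch holds none. Of the 167 lower genes 97 had a single promoter window in the RefSeq table, from 250 bases before to 50 bases after the start, and 28 of them (28.9%) held CAGGTG on either strand, beside 16.7% of the 5742 tested genes with a single window and 20% of all 22862 such promoters. Of the 54 higher genes with a single window 4 (7.41%) held it. Windows with 2 or more E-boxes made up 10.3% of the lower genes (Ap1m2, Celsr2, Dusp8, Map3k9, Map7, Rab25, Rbm45, Tmem51, Tnk1 and Zfp746, of which Tnk1 was also called by the averaged fit and DESeq2 and Map7 by DESeq2), 1.85% of the higher genes (Nlk) and 2.12% of the tested genes. The TEAD motif GGAATG was in 11.3% of lower, 9.26% of higher and 11.3% of tested windows, and the AP-1 motif TGANTCA in 4.12%, 9.26% and 4.25%, on either strand. The grainyhead motif AACCGGTT was in none of the lower or higher windows and in 0.366% of the tested ones. None of the 4 motifs contains another, and a match is a description of letters and not a bound site.

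Junction and polarity genes had negative fold changes, and few of them separated. Of 17 tested tight junction and polarity genes all 17 had a negative fold change, with a median log2 fold change of -2.44, and 12 had an unadjusted p under 0.05. Over all genes 4343 of the 9031 tested had a negative fold change. As the lists were chosen with earlier results known, a shared direction carries no test here or in the lists below. Ildr1 (chromosome 16, 36693978 to 36726804, plus strand), an angulin of tricellular junctions, had 131, 61.9, 46.1 and 83.8 in luminal and 23.3, 27.8, 0 and 1.29 in basal-like libraries. Its log2 fold change was -3.58 ± 0.73 (SE) at a limma adjusted p of 0.428, and it was called by the averaged fit and by DESeq2. Crb3, the Crumbs protein that sets the apical domain, had 150, 119, 82.5 and 74.7 in luminal and 52.1, 47.7, 2.68 and 0 in basal-like libraries, and was called by the averaged fit (limma adjusted p = 0.0263) and by DESeq2 (adjusted p = 0.00665). The Marvel proteins Marveld2 and Marveld3 also did not overlap, with log2 fold changes of -2.44 and -2.07. The claudins of the list overlapped through Lats1-CKO luminal replicate 2. Cldn4, named after its values were seen, had 1368, 999, 1105 and 133 in luminal and 672, 136, 22.8 and 27.2 in basal-like libraries, and without that library Cldn3, Cldn4 and Cldn7 all separated. DESeq2 called these 3 claudins and the averaged fit none of them. The number of separating genes of the list was 4 with all libraries, 8 without the second of the Lats1-CKO luminal libraries and 9 without the first WT basal-like library. Of all tested genes 1.85%, 4.01% and 5.29% separated as lower in the same settings.

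Nectin4 (chromosome 1, 171370099 to 171388598, plus strand), an adhesion receptor of adherens junctions, had the lowest fold change of all tested genes. It had 109, 68.9, 86.4 and 48.4 in luminal and 9.33, 26.3, 0 and 0 in basal-like libraries, so that no read was found in Lats1-CKO basal-like cells. The log2 fold change was -4.21 ± 0.74 (SE) at a limma adjusted p of 0.368, and the averaged fit (limma adjusted p = 0.0136) and DESeq2 (adjusted p = 0.000897) called it. Of the 12 tested adherens junction and desmosome genes all 12 had a negative fold change (median -1.34) and 8 an unadjusted p under 0.05. The desmosome genes Pkp1, Pkp3 and Dsp did not overlap. Without WT basal-like replicate 1 the count of separating genes was 7 of 12 (58.3%), beside 5.29% of all tested genes that were then lower. Pkp3, a plakophilin of desmosomes, had 332, 323, 385 and 441 in luminal and 246, 158, 13.4 and 16.8 in basal-like libraries, and was called by the averaged fit (limma adjusted p = 0.00763) and by DESeq2 (adjusted p = 0.0199). Cdh1, which encodes E-cadherin and was named after its values were seen, overlapped: it had 501, 539, 368 and 398 in luminal and 400, 444, 21.4 and 19.4 in basal-like libraries. The WT libraries of both populations shared 1 range while those of Lats1-CKO lay far apart, with log2 fold changes of -0.30 and -4.16. Cdh1 was called by the averaged fit (limma adjusted p = 0.00763) and not by DESeq2 (adjusted p = 0.0690). A call of the averaged fit does not need a difference in both genotypes.

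The surface proteases of epithelia and their inhibitors formed a short list. Of 6 tested genes all 6 had a negative fold change (median -2.57) and an unadjusted p under 0.05. Prss8, St14 and Spint1 did not overlap (4 of 6 genes without WT basal-like replicate 1, beside 5.29% of all tested genes that were then lower). Prss8, the membrane protease prostasin, had 172, 116, 123 and 112 in luminal and 57.5, 72.4, 1.34 and 3.88 in basal-like libraries. St14, the protease matriptase that activates prostasin, had 476, 409, 412 and 298 in luminal and 280, 181, 9.38 and 18.1 in basal-like libraries. Spint1, an inhibitor of matriptase, had 192, 115, 124 and 77.7 in luminal and 67.6, 43.8, 2.68 and 3.88 in basal-like libraries. All 3 genes showed 3 levels, highest in luminal, lower in WT basal-like and lowest in Lats1-CKO basal-like libraries, and all 3 were called by the averaged fit and by DESeq2.

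Transcription and splicing factors of epithelial cells mostly had negative fold changes. Of 16 tested genes 14 had a negative fold change (median -1.77), 11 had an unadjusted p under 0.05 and 6 did not overlap, among them Esrp2, Grhl2, Grhl1, Ovol2 and Tfap2a. Without WT basal-like replicate 1 the count was 9 of 16 (56.2%), beside 5.29% of all tested genes that were then lower. Gata3 and Trp63 had positive fold changes of 0.33 and 0.15. Grhl2, a grainyhead factor that maintains epithelial junction genes, had 50, 69.5, 52.8 and 57.5 in luminal and 44.3, 20.7, 4.02 and 5.18 in basal-like libraries. Zfp750 (chromosome 11, 121510978 to 121519333, minus strand), a zinc finger factor of epidermal differentiation, had 94.6, 65.7, 50.9 and 58.5 in luminal and 17.1, 27.0, 0 and 3.88 in basal-like libraries. DESeq2 called Zfp750 (adjusted p = 0.00173), while limma did not (adjusted p = 0.428) and the averaged fit did not (limma adjusted p = 0.0656).

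Further genes with wide gaps were of other kinds. Bspry (chromosome 4, 62480053 to 62497298, plus strand), a B-box and SPRY domain protein, had 197, 75.3, 109 and 62.6 in luminal and 32.6, 19.1, 0 and 2.59 in basal-like libraries. Its gap, 1.89-fold, was the widest of the lower genes after Bicdl2, and it was called by the averaged fit (limma adjusted p = 0.0406) and by DESeq2 (adjusted p = 0.000335). Jag1, a ligand of Notch receptors, had 10.8, 12.8, 14.4 and 33.3 in luminal and 6.22, 5.57, 1.34 and 6.47 in basal-like libraries, a log2 fold change of -1.67 ± 0.57 (SE) at a limma adjusted p of 0.564. For Jag1 the basal-like counts rest on 21 reads in all and the luminal counts on 76, so its gap spans few reads. Tmem265, a transmembrane protein, had 29.7, 39.5, 37.4 and 34.3 in luminal and 17.9, 14.3, 6.70 and 14.2 in basal-like libraries. Among the 8 tested ErbB receptors and ligands, Erbb3, a receptor of neuregulins, alone did not overlap, with a log2 fold change of -1.80 ± 0.55 (SE) at a limma adjusted p of 0.525.

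Of the genes higher in basal-like cells, Axl stood apart by the width of its gap. Axl (chromosome 7, 25757273 to 25788705, minus strand), a receptor tyrosine kinase found in mesenchymal carcinoma cells and a target of YAP, had 288, 169, 228 and 222 in luminal and 695, 619, 671 and 681 in basal-like libraries. The basal-like mean was 666 ± 33.1 (SD, n = 4) and the luminal mean 227 ± 48.6 (SD, n = 4), and the lowest basal-like library lay 2.15-fold above the highest luminal library. WT basal-like replicate 1, which lay among the luminal libraries for Epcam and Krt8, had the highest Axl count of all. The log2 fold change was 1.57 ± 0.20 (SE), with 1.57 in WT and 1.58 in Lats1-CKO (limma adjusted p = 0.151), and Axl was called by the averaged fit (limma adjusted p = 0.0406) and by DESeq2 (adjusted p = 3.29e-08). Of the 20 tested YAP/TAZ target genes 11 had a positive and 9 a negative fold change (median 0.03). An unadjusted p under 0.05 was found for 2, Axl, which was higher, and Nt5e, which was lower in basal-like cells. None but Axl was free of overlap, while without WT basal-like replicate 1 a further gene was higher and 1 was lower. Over all tested genes 0.997% separated as higher with all libraries. Without that replicate 5.08% separated as higher and 5.29% as lower, near the shares of this list. Ccn2, a matricellular YAP target, had 928, 265, 291 and 575 in luminal and 190, 177, 53.6 and 674 in basal-like libraries.

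The next widest gaps were smaller. Tspan4 (chromosome 7, 141475240 to 141493427, plus strand), a tetraspanin of migration-associated vesicles, had 419, 329, 373 and 416 in luminal and 623, 860, 1074 and 1468 in basal-like libraries, a log2 fold change of 1.32 ± 0.22 (SE) at a limma adjusted p of 0.336. DESeq2 called Tspan4 (adjusted p = 0.000335) and the averaged fit did not. Ptprm, a receptor phosphatase of cell contacts, had 4.05, 1.28, 6.72 and 7.07 in luminal and 9.33, 10.3, 13.4 and 50.5 in basal-like libraries. The luminal counts of Ptprm rest on 19 reads in all, so its gap too spans few reads. Triobp, an actin-binding protein, Smap2, an Arf GTPase-activating protein, Mapre2, a microtubule end-binding protein, and Smarcb1, a subunit of the SWI/SNF remodeling complex, differed by 0.86, 0.81, 0.89 and 0.58 on the log2 scale. Smarcb1 had 143, 140, 145 and 150 in luminal and 198, 205, 206 and 260 in basal-like libraries, a narrow luminal range with every basal-like library above it. Emp3, a membrane protein named after its values were seen, had the largest fold change of the 90 genes, with 33.8, 21.1, 163 and 183 in luminal and 413, 203, 325 and 729 in basal-like libraries. Its difference was 3.39 in WT and 1.49 in Lats1-CKO on the log2 scale, and its luminal libraries formed a lower WT pair and a higher Lats1-CKO pair.

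Mesenchymal and matrix genes mostly had positive fold changes but overlapped. Of 24 tested matrix genes 22 were on the positive side (median log2 fold change 1.48), 8 had an unadjusted p under 0.05 and 0 separated. Without WT basal-like replicate 1 the matrix genes Col5a1, Fn1, Sparc and Serpinh1, 4 of 24 (16.7%), separated as higher in basal-like cells, beside 5.08% of all genes, and 2 genes did so without Lats1-CKO luminal replicate 1. Fn1, Sparc and Serpinh1 were named after their values were seen. Col5a1, a fibrillar collagen, had 5.41, 7.65, 78.7 and 45.4 in luminal and 27.2, 81.9, 229 and 243 in basal-like libraries, so that it was higher in basal-like cells within each genotype while the WT basal-like and Lats1-CKO luminal ranges crossed. Its log2 fold change was 2.33 ± 0.38 (SE) at a limma adjusted p of 0.336, and DESeq2 called it (adjusted p = 0.000400). Of 15 tested mesenchymal and contractile genes 10 had a positive fold change (median 0.28), and again none but Axl was free of overlap. An unadjusted p under 0.05 was found for 6, among them Nt5e, which was lower in basal-like cells (log2 fold change -1.31). S100a4, a calcium-binding protein of motile cells, had 94.6, 341, 1727 and 840 in luminal and 610, 1778, 8037 and 2204 in basal-like libraries, and Vim, which encodes vimentin and was named after its values were seen, had 861, 1455, 2296 and 4768 in luminal and 2578, 5225, 10596 and 15998 in basal-like libraries. For Vim as for S100a4 every basal-like library lay above both luminal libraries of its own genotype, and the overlap was between WT basal-like and Lats1-CKO luminal cells. Without WT basal-like replicate 1 both genes were free of overlap, which made 3 of 15 with Axl. DESeq2 called both, and the averaged fit neither.

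The EMT factors measured well enough to test had positive fold changes. Twist2 had 16.2, 6.38, 54.7 and 12.1 in luminal and 41.2, 66.0, 241 and 54.4 in basal-like libraries, a log2 fold change of 2.17 ± 0.60 (SE) at a limma adjusted p of 0.492. Snai1, Snai2 and Twist1 had 1.13, 0.67 and 0.66 on the log2 scale. Of the 4 tested factors 2 had an unadjusted p under 0.05 and 0 separated. Without Lats1-CKO luminal replicate 1, a setting picked after the counts were seen, 2 separated, beside 2.04% of all tested genes that were then higher. The count was 1 without WT basal-like replicate 2 or without Lats1-CKO luminal replicate 2. It stayed at 0 without any other library, WT basal-like replicate 1 included. Zeb1 was too low to test. The 11 basement membrane genes were split, with 6 negative and 5 positive fold changes. Lamc1, the laminin gamma 1 chain, was higher in every basal-like library (log2 fold change 0.69 ± 0.20, SE; limma adjusted p = 0.496). Lama3 and Lamb3, chains of the epithelial laminin of hemidesmosomes, had -2.64 and -2.03, and Lama3 was lower in every basal-like library once WT basal-like replicate 1 was left out. Itgb4, the integrin that binds this laminin, was lower in every basal-like library with 1462, 1211, 1343 and 3956 in luminal and 1204, 874, 22.8 and 454 in basal-like libraries.

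**Figure D3:**
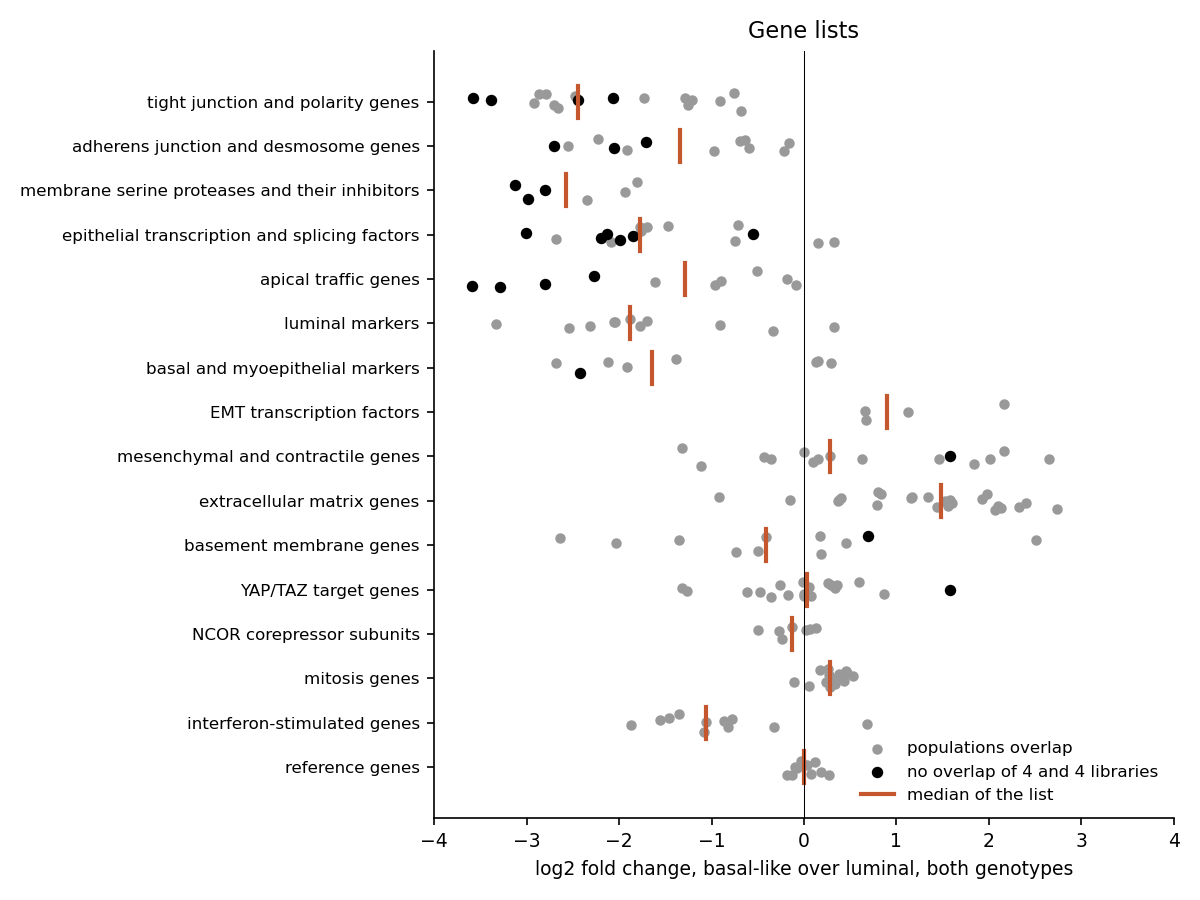
Log2 fold change of basal-like over luminal libraries with genotype as a covariate (x axis) for the tested members of 16 gene lists (y axis), 1 point per gene, black where the populations did not overlap, with a bar at the median of the list. The medians of the junction, protease, epithelial factor and apical traffic lists lie between -2.57 and -1.29, that of the extracellular matrix list at 1.48 and that of the reference genes at -0.00.

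Further lists were described in the same way. The 7 tested subunits of the NCOR corepressor complex had a median log2 fold change of -0.13 and none had an unadjusted p under 0.05 (1 separated without WT basal-like replicate 1). The 6 tested genes of the set assayed in the study as NCOR1-repressed all had a positive fold change (median 1.30), of which 3 had an unadjusted p under 0.05 and 0 separated (1 without WT basal-like replicate 1), and because the set was chosen by the study it is no independent evidence of direction. The 10 reference genes had a median of -0.00, although Gapdh ranged from 25.7 to 2577, at 25.7 in WT luminal replicate 1 and 37.5 in Lats1-CKO basal-like replicate 1, and its reads can be shared with near-identical copies. Of the 16 mitosis genes 15 had a positive fold change (median 0.28), with a median of 0.94 in WT and -0.36 in Lats1-CKO, and their summed level was 858 to 3309 in luminal and 1863 to 4799 in basal-like libraries. The 11 interferon-stimulated genes had a median of -1.06, with -1.70 in WT and -0.15 in Lats1-CKO, and their summed level was 2889 in WT luminal replicate 1 and 111 to 948 in the other luminal libraries. None of them separated with all libraries, and 5 of 11 were lower in every basal-like library without Lats1-CKO luminal replicate 2. Over all tested genes 4.01% were lower without that library. This setting was picked after the counts were seen. The count of the list was 1 without Lats1-CKO basal-like replicate 1 and 0 without any other library. The shares of all tested genes were 5.29% lower and 5.08% higher without WT basal-like replicate 1. Of 11 tested luminal markers 10 had a negative fold change (median -1.88), 5 an unadjusted p under 0.05 and 0 separated, while Krt8 alone did without WT basal-like replicate 1. The 7 luminal secretory genes had 4 negative and 3 positive fold changes.

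Markers of other cell types were low with 2 exceptions. The summed level of 3 of 9 immune markers was 6.06 to 37.4 in luminal and 8.75 to 89.3 in basal-like libraries, and that of 2 of 8 endothelial markers was 1.01 to 16.3 and 1.29 to 37.5. For 4 of 10 fibroblast markers it was 2957 in Lats1-CKO basal-like replicate 1, nearly all Cxcl12 at 2881, and 17.6 to 263 in the other 7 libraries. For 12 of 15 chondrocyte genes it was 34595 in Lats1-CKO basal-like replicate 2, 5468 in Lats1-CKO luminal replicate 2 and 301 to 655 in the other 6 libraries. The part of these markers in the population difference was not tested.

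**Figure D4:**
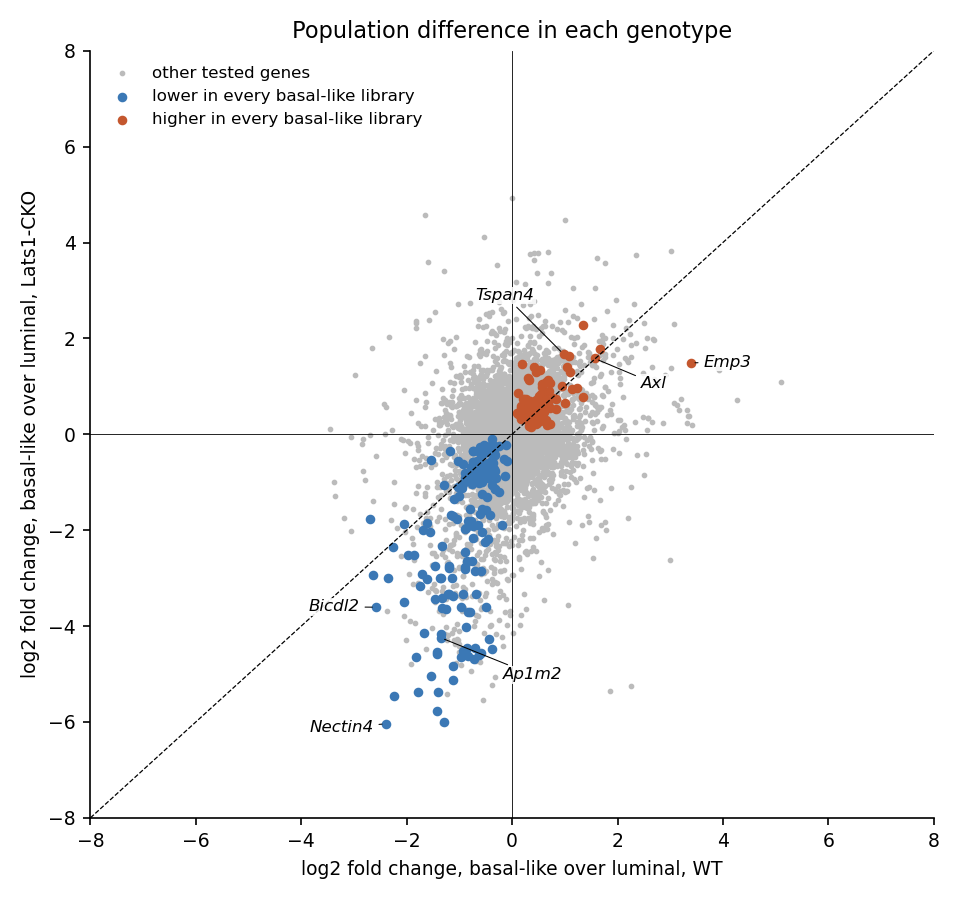
Log2 fold change of basal-like over luminal libraries in WT (x axis) and in Lats1-CKO (y axis), 1 point per tested gene, with colors for the genes that did not overlap and a dashed line where both are equal. Most genes lower in basal-like cells lie below the line, such as Nectin4 with -2.39 in WT and -6.04 in Lats1-CKO, while Axl lies on it with 1.57 and 1.58.

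The size of the difference was compared between the genotypes. Among the 167 lower genes the median log2 fold change was -0.74 in WT and -1.67 in Lats1-CKO, and 138 of them had the larger difference in Lats1-CKO. In 94 of the 167 genes both Lats1-CKO basal-like libraries lay below both WT basal-like libraries, and the reverse held in 9. Among the 90 higher genes the medians were 0.50 and 0.60, and 56 had the larger difference in Lats1-CKO. These counts come from genes chosen on the same values, and none was taken over all tested genes. They carry no test of a larger difference in Lats1-CKO. No gene was called in the interaction test (limma, 0 genes at an adjusted p under 0.05, 210 at an unadjusted p under 0.05), edgeR called 0 with 228 at an unadjusted p under 0.05, and DESeq2 called 24. Within Lats1-CKO limma called 44 genes, all lower in basal-like cells (0.487%), of which 26 were among the 167, while within WT it called 0 with 133 at an unadjusted p under 0.05, where edgeR called 0 and DESeq2 4. The count within Lats1-CKO was 93 without Lats1-CKO basal-like replicate 2, 28 without Lats1-CKO basal-like replicate 1, 16 without Lats1-CKO luminal replicate 2, 9 without Lats1-CKO luminal replicate 1 and 21 without either WT luminal library. The Lats1-CKO basal-like libraries had totals of 1128766 and 1312264 reads, and 5 of the lower genes had 0 reads in both, where a count of 0 allows up to 3 reads per library.

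Of the 34 genes called by the averaged fit, 20 of the 30 lower genes and 2 of the 4 higher genes, Axl and Emp3, did not overlap. The other 2 higher genes, among them Oaf, a secreted protein, overlapped. Oaf had 13.5, 5.10, 39.3 and 44.4 in luminal and 43.5, 29.4, 272 and 321 in basal-like libraries, and DESeq2 called it as well, as it did Axl and Emp3. Oaf was named after its values were seen. DESeq2 called 26 of the 167 lower and 6 of the 90 higher genes, beside 0.601% lower and 0.343% higher of the 8155 genes with an adjusted p. The separating genes were chosen on the same values that every fit used, so calls among them are no separate support.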

How the data were processed

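Per the methods of the study, the authors used cutadapt for trimming, STAR 2.4.2a for alignment to mm10 and HTSeq in union mode for counting over Gencode genes extended at both edges. Not given in the sources used here are the Gencode version, the strand setting, any use of molecular identifiers and the versions of cutadapt, HTSeq and DESeq2. The deposited values are a normalized signal for each gene in each library: read counts over DESeq2 size factors that the authors estimated from all 8 libraries. The deposited table also holds the authors' log2 fold changes and p-values for pairs of groups, which were not used. Its per-sample columns without a sample numbered 0.

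The main test was limma 3.58.1 in R 4.3.3, with a trend of the variance on the mean, fitted to log2(value + 1) with a coefficient for genotype and another for population (5 residual degrees of freedom). The filter, at least 10 in 2 or more libraries, kept 9031 genes and left out 1893. A call needed an adjusted p under 0.05 (Benjamini-Hochberg, all tested genes). The added 1 makes fold changes of low genes too small. The averaged fit, the effects within a genotype and the interaction came from a model of the 4 groups with 4 residual degrees of freedom. For 100% of genes the values of a library divided into whole reads (tolerance 1e-06), so reads were recovered for edgeR 4.0.16 and DESeq2 1.42.0 as alternatives, beside other pseudocounts, filters, size factors and designs and each library left out in turn. DESeq2 gave no adjusted p for 876 genes, which stayed out of its counts. The tests were tried on simulated counts with known changes. Floors cover counting error only, since PCR reads are not independent molecules.

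The genes and gene lists were chosen with earlier results of these data known. Named genes were Epcam, Itga6, Lats1 and the keratins, the 8 of each direction with the widest gap, and up to 4 of each list, with separating genes first. Rules for called genes named none, and some genes that met these rules are not reported here. Coordinates are those of GENCODE M21 on GRCm38 (mm10), where 10742 of the 10924 symbols had 1 position, and promoter sequences are from a RefSeq table on GRCm38.p6. Replicates follow sample order within a group, and the labels pair no libraries.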

Additional observations from a re-analysis of the deposited data

Results flagged for a closer look

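Dixon's test was applied to 46 sets of 4 libraries of a population, over the keratins, Epcam, Itga6, Lats1 and the genes with the widest gaps. In 6 sets a library lay further from its nearest neighbor than the critical share of the whole range. Chance alone flags about 1 set in 20 for normal values of a single group. Each set here held untransformed counts of both genotypes, so that rate is only nominal. Among the luminal libraries, Lats1-CKO luminal replicate 2 was far above the others for Krt5 at 4881, for Krt14 at 14722 and for Jag1 at 33.3, and Lats1-CKO luminal replicate 1 was below the others for Smap2 at 15.4. Among the basal-like libraries, Lats1-CKO basal-like replicate 2 was above the others for Smarcb1 at 260.2 and for Ptprm at 50.5. For Jag1, Smap2, Smarcb1 and Ptprm the distant library lay on the side away from the other population, a side favored by the choice of genes with wide gaps.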

How the results depend on the processing

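The population effect across both genotypes had 0 called genes in limma under each pseudocount, filter, scaling and library left out and in edgeR with all libraries, and 34 with a coefficient per group, 77 with DESeq2 and 34 (12 lower, 22 higher) with DESeq2 using its fold-change prior without independent filtering. DESeq2 called 4 genes within WT, 129 within Lats1-CKO and 24 in the interaction, against 0, 44 and 0 in limma. With 1 library left out the counts were 9 to 93 within Lats1-CKO and 0 to 2 in the interaction, where the 2 came without Lats1-CKO luminal replicate 1, and 365 to 937 genes separated. The count of separating genes can only stay or rise when a library is left out. A gap of at least 1.5-fold left 15 separating genes and a mean of at least 50 left 120, both by construction. A scaling shifted the median of all genes from 0.02 to -0.01 (TMM) or -0.06 (library total). Where not stated, the cause was not tested.

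Of 1904 values of 97 named genes under an alternative, 1819 kept their direction and side of the threshold, 56 passed it (27 with DESeq2, 15 with its prior, 14 with a coefficient per group) and 29, in 12 genes, changed sign. Col15a1 was at -0.17 and became 0.12 with a pseudocount of 5, 0.63 with edgeR, 0.014 with DESeq2 and 0.23 with its prior, and Gapdh at 0.18 became -0.027 with edgeR. With 1 library left out, log2 fold changes ran from -0.67 to 0.14 for Itga6, -0.45 to 0.024 for Hdac3, -0.41 to 0.23 for Hdac2, -0.12 to 0.87 for Ccnb2, -0.094 to 0.82 for Cenpa, -0.20 to 2.88 for Cxcl12, -1.39 to 0.98 for Col15a1, -0.84 to 0.40 for Egfl7, -0.57 to 2.42 for Acan, -2.07 to 0.24 for Col9a3, -1.67 to 1.86 for Gapdh and -0.40 to 0.25 for Ppia. No paired analysis was possible because the labels give no replicate numbers. Low counts in the Lats1-CKO basal-like libraries limit the precision of the genes near 0 there.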
